A study of Mus musculus with 6 samples.

Results

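The genes described here are 35 integrins, their cytoplasmic partners and other adhesion molecules by which haematopoietic stem cells (HSCs) hold to the bone marrow niche. They were taken by symbol from the deposited table, where all 35 were among 23955 symbols, and they fall into 9 integrin alpha subunits, 4 integrin beta subunits, 4 members of the complex of integrin-linked kinase, PINCH and parvin, 5 focal adhesion proteins, 3 mucin-like or hyaluronan receptors, 7 immunoglobulin-family adhesion molecules and 3 others. The study measured RNA in HSCs sorted from bone marrow of C57BL/6 mice aged 4 months. Obese mice with 2 copies of db, a mutant form of the leptin receptor gene (db/db, labelled LepR_Null), were compared with wild-type (WT) littermates. Cells carrying Sca-1 and c-Kit without lineage markers were gated as CD150+ CD48-, and 20000 were sorted per library. There were 3 experiments, labelled Exp18, Exp22 and Exp25 and called replicates 1, 2 and 3 here, each with 1 WT and 1 db/db library. No group received a treatment that the labels name, the mutation is a germline one that all tissues of the mouse carry, and the labels do not say how many mice gave a library. P-values therefore measure the spread between these libraries only.

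Integrins are receptors made of 1 alpha and 1 beta subunit that bind matrix proteins or molecules on neighbouring cells. Talins and kindlins bind the beta tail and switch the receptor on, and a complex of integrin-linked kinase, PINCH and parvin then links it to actin. In marrow, the pair of Itga4 and Itgb1 products binds VCAM1 on niche cells and fibronectin in the matrix, the pair of Itgal and Itgb2 products binds ICAM molecules, and CD44 and PSGL-1 (the product of Selplg) bind hyaluronan and selectins. Blocking several of these contacts is known to release stem cells into the blood.

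Values are TPM, an estimate of transcript abundance corrected for transcript length, so levels of different genes can be set side by side. Sequencing depth is unknown, since TPM does not keep it. The 6 libraries listed between 13314 and 13810 symbols above 0, and their median-of-ratios size factors ran from 0.805 to 1.21. Of 9 genes that mark the stem cell gate, all were above 0 in every library. Their summed levels were 1296 to 2241 TPM in WT and 1885 to 2157 TPM in db/db, and all 9 had the higher mean in db/db. Slamf1, the gene of CD150, alone among them separated the groups, at 11.91 to 23.99 TPM in WT and 24.96 to 38.9 TPM in db/db. Genes of granulocytes, cells that the lineage antibodies should remove, summed to 4521, 360.4 and 285.9 TPM in WT replicates 1, 2 and 3. They summed to 3838, 1969 and 1422 TPM in db/db replicates 1, 2 and 3. Experiment 1 thus held the highest sum in both groups, and WT replicate 1 was far above the WT libraries of experiments 2 and 3. The 2 genes of cells outside the gate, Cd48 and Flt3, summed to 10.4 to 14.0 TPM in WT and to 22.9 to 51.0 TPM in db/db, without overlap. Of these, Flt3 separated the groups by itself, at 6.18 to 12.7 TPM in WT and 18.43 to 29.6 TPM in db/db. Cd48 overlapped, at 5.35, 4.2 and 1.09 TPM in WT and 9.1, 21.44 and 1.63 TPM in db/db. The T cell genes Cd3e and Cd3g were listed at 0 in all 6 libraries. In bulk RNA, fewer cells that express a gene and less RNA per cell cannot be told apart.

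Promoter sequence is shown for 4 members. Itgb5 and Cd47 are members whose db/db and WT values did not overlap, Zyx was the most abundant member and Itga1 was listed at 0 in every library. The RefSeq promoter table held 19 of the 35 members, and each line gives the 250 bases before the annotated start, read 5′ to 3′ on the gene's strand of GRCm38.p6, a later build than the mm9 of the deposited table. Capitals mark GGGCGG, the GC box bound by factors of the Sp and Klf families, on either strand.
Itgb5, chr16:33829415-33829664, plus strand: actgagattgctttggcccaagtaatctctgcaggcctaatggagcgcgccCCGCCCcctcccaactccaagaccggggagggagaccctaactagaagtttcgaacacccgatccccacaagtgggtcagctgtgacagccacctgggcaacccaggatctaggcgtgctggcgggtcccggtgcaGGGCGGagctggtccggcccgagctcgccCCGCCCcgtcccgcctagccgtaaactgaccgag
Cd47, chr16:49855404-49855653, plus strand: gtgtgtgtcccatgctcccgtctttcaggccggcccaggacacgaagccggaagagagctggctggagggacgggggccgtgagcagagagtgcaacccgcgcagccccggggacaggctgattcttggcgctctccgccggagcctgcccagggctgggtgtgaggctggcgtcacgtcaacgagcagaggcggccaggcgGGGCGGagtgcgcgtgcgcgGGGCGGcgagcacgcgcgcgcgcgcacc
Zyx, chr6:42349578-42349827, plus strand: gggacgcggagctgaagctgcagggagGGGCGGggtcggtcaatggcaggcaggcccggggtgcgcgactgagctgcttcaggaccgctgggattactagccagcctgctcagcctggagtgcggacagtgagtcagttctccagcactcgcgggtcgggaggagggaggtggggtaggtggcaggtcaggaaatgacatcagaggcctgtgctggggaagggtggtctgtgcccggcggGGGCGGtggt
Itga1, chr13:115101965-115102214, minus strand: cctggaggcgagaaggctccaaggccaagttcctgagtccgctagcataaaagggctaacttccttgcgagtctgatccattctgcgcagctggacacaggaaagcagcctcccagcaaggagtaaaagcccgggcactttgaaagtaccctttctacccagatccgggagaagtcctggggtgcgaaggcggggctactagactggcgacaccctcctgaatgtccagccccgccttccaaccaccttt

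The window of Itgb5 held 3 copies of GGGCGG, those of Cd47 and Zyx 2 each, and that of Itga1 none. Of the 19 matched members, 12 had the motif in their window (63.2%), against 32.7% of all 32851 windows of that length in the table. Each member gave 1 window, that of its most upstream start. The 32851 were not limited to 1 per gene or to expressed genes, so the sets compared in this paragraph are unlike. For 15 of the 19, bases after the start were found in a transcript of that gene in the GENCODE annotation, and for the others they were not. Members with it ran from Zyx, the most abundant, to Mcam, which was listed at 0 in 5 of 6 libraries. A TATAAA stretch was in no member window and in 12.4% of all windows. AATCAC, a core of the site that GFI1, the factor in the title of the series, is known to bind, was in 1 member window, that of Itga5, and in 9.14% of all windows. All motifs were searched on both strands, and a match is a description of letters only. CpG pairs numbered 5 to 33 per member window, with a median of 18, against a median of 6 over all windows.

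The members kept nearly the same order of abundance in every library. Over the 30 members with a mean of at least 1 TPM, the Spearman correlation between any 2 libraries lay between 0.92 and 0.974, a description over genes that share a library. In WT, 4 members averaged at least 100 TPM, 15 between 10 and 100 TPM, 10 between 1 and 10 TPM and 6 under 1 TPM. The 5 members that averaged under 1 TPM over all libraries were not tested. Itga1, a collagen receptor subunit, was listed at 0 throughout, and Cdh2, or N-cadherin, at 0 in all WT libraries and at 0, 0.11 and 0.16 TPM in db/db. Parva, the parvin of many non-blood tissues, was above 0 only in WT replicate 1, at 0.11 TPM, as was Mcam, a molecule of endothelial and stromal cells, at 0.83 TPM. Itgae, a subunit of lymphocytes in epithelia, lay between 0 and 0.97 TPM.

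**Figure D1:**
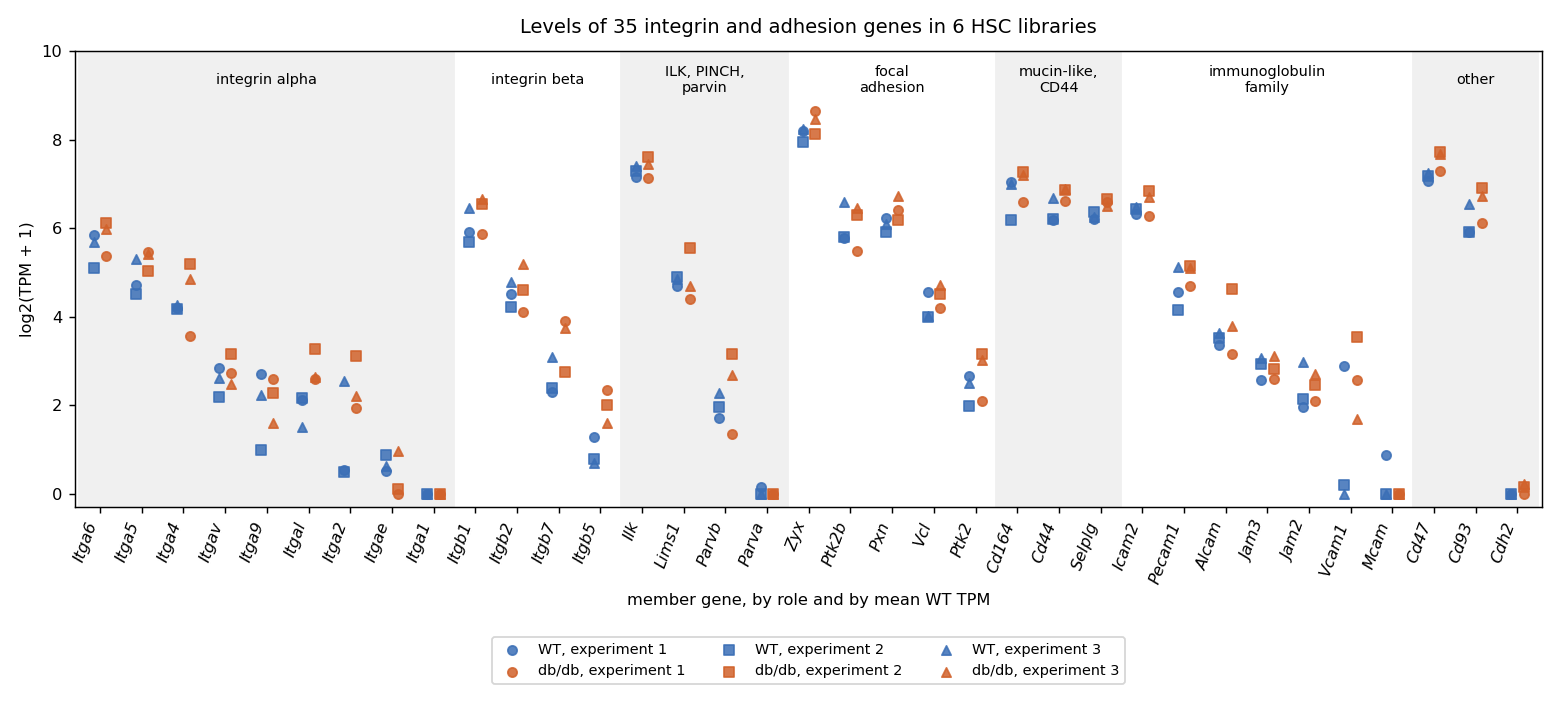
Levels of the 35 members in log2(TPM + 1) on the vertical axis, 1 point per library, blue for WT and orange for db/db, with the marker shape giving the experiment; genes are grouped by role and ordered by mean WT TPM. Zyx, Ilk and Cd47 lie highest, and Itga1, Parva, Mcam and Cdh2 lie at or near 0.

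No member changed between db/db and WT by limma with Benjamini-Hochberg adjustment over all 11931 genes tested, at an adjusted p under 0.05. The count was 0 of 30 members, against 0.0335% of all genes called higher and 0% called lower, and adjusted p of the members ran from 0.899 to 0.996. At an unadjusted p under 0.05, 1 member, Vcam1, was higher and 0 were lower, where 4.1% of all genes were higher and 1.25% lower. The count of members past the adjusted threshold was also 0 in all 15 other settings tried, with the experiment as a replicate block among them (0.0503% of all genes passed with the block). At an unadjusted p under 0.05 the block gave 1 higher and 0 lower members, against 5.41% and 1.62% of all genes, and median-of-ratios scaling gave 0 and 0, against 2.49% and 2.98%. Differences are given below as db/db minus WT in log2(TPM + 1), where the added 1 makes changes of low genes look smaller.

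All but 1 of the 30 member differences were above 0, but the median of all genes was above 0 as well. The member median was 0.33, against 0.18 for all genes tested, so members lay 0.15 above the median gene. Of the 30, 24 lay above the median gene and 6 below. After median-of-ratios scaling the median gene lay at 0.00 and the members at 0.14, with 23 above and 7 below the median gene. The 5 members Itgb2, Ilk, Lims1, Ptk2b and Jam2 then had a difference below 0, as Jam3 did under both scalings. Within experiments the member median was -0.04 in experiment 1, 0.76 in experiment 2 and 0.22 in experiment 3, or -0.04, 0.32 and 0.13 relative to the median gene of each. In experiment 1, 14 members were higher in db/db and 16 lower, in experiment 2 29 and 1, and in experiment 3 23 and 7, so experiment 1 did not share the direction of the others. Higher in all 3 experiments were 10 members, against 22.7% of all genes, and lower in all 3 were 0, against 7.55%. The size factors were 0.902 and 0.904 for the WT and db/db libraries of experiment 1, 0.805 and 1.12 in experiment 2 and 1.12 and 1.21 in experiment 3, and their part in these medians was not tested beyond the scaling above.

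**Figure D2:**
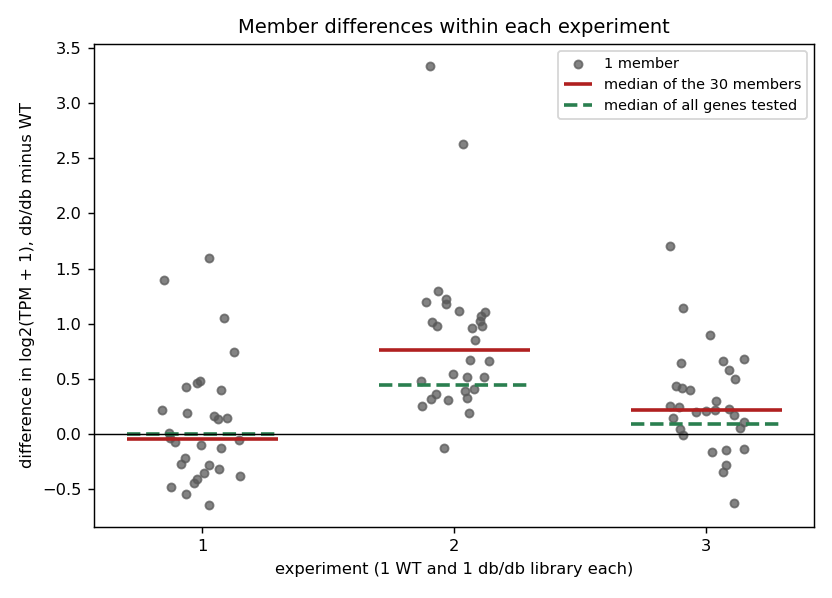
Difference between the db/db and the WT library of each experiment on the log2(TPM + 1) scale (vertical axis), 1 point per tested member, with the member median as a solid red line and the median of all genes as a dashed green line. Members centre on -0.04 in experiment 1, on 0.76 in experiment 2 and on 0.22 in experiment 3.

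Groups did not overlap for 4 of the 30 tested members, Itgal, Itgb5, Selplg and Cd47, all higher in db/db, against 7.85% of all genes higher in this way and 2.32% lower. On median-of-ratios values Itgb5 and Cd44 did not overlap, where 5.67% of all genes were higher in this way and 4.75% lower. Itgb5 met the minimum mean of 1 TPM for testing only through its db/db values. The count of 4 changed with some libraries left out. It was 15 without db/db replicate 1, where 24.7% of all genes were higher without overlap, 10 without WT replicate 3 (24.1%), 8 without db/db replicate 2 (12.2%) and 7 without WT replicate 1 (11.1%). It stayed at 4 without WT replicate 2 (10.2%) or db/db replicate 3 (10.9%). The share of all genes rose each time, and fewer libraries separate more easily. Any gene that separates 3 libraries from 3 has p = 0.1 by exact permutation, counted on both sides, and no lower value is possible. The 4 members were picked for such separation, so this p-value was fixed by the choice and adds nothing to it. Flt3, but not Cd48, also separated the groups in these libraries, and the part of cells outside the gate in these values was not tested.

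Among the integrin alpha subunits, Itga6, a laminin receptor subunit found on HSCs, was the most abundant. WT replicates 1, 2 and 3 held it at 56.69, 33.59 and 50.87 TPM, and db/db replicates 1, 2 and 3 at 40.35, 69.01 and 62.74 TPM. The groups overlapped, the WT library of experiment 1 lying above its db/db partner. The difference was 0.28 (SE 0.32, 95% interval -0.38 to 0.94, limma adjusted p = 0.926).

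Itga5, the subunit of the fibronectin receptor, was next, at 25.16, 21.92 and 38.68 TPM in WT and 42.78, 31.91 and 41.9 TPM in db/db. Each experiment had the higher value in db/db, by 0.74, 0.52 and 0.11, but WT replicate 3 lay above db/db replicate 2. Its difference of 0.46 (SE 0.33) did not pass (limma adjusted p = 0.92). Itga4, the VCAM1 receptor subunit, was 17.39, 17.13 and 18.22 TPM in WT and 10.79, 35.84 and 27.75 TPM in db/db. The WT libraries thus lay close together, with a coefficient of variation of 3.24%, the lowest of the 30 members in WT, while the db/db libraries spread on both sides of them at 51.6%. Its difference within experiments was -0.64, 1.02 and 0.58.

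Itgal, the alpha subunit of LFA-1, a leukocyte receptor for ICAM molecules, was 3.33, 3.49 and 1.83 TPM in WT and 5.05, 8.7 and 5.23 TPM in db/db. All 3 db/db libraries lay above all WT libraries, with differences of 0.48, 1.11 and 1.14 within the experiments. The overall difference of 0.91 (SE 0.49, 95% interval -0.11 to 1.93) did not pass (limma adjusted p = 0.919), and after median-of-ratios scaling the groups overlapped. Granulocytes also carry LFA-1. All 8 granulocyte genes had the higher mean in db/db. By experiment, their sums were 4521, 360.4 and 285.9 TPM in WT and 3838, 1969 and 1422 TPM in db/db. The db/db sum was thus the lower in experiment 1 and the higher in experiments 2 and 3. The part of granulocytes in the Itgal values was not tested.

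Itga2, a collagen receptor subunit of platelets, had the widest difference of the alpha subunits, 1.23 (SE 0.62, limma adjusted p = 0.919). WT libraries had 0.45, 0.4 and 4.83 TPM and db/db libraries 2.81, 7.65 and 3.6 TPM, so WT replicate 3 lay within the db/db range. The difference ran from 0.87 to 1.90 when 1 library was left out. It was 1.90 without WT replicate 3 (adjusted p = 0.407), and 0.87, 0.88 and 0.90 without WT replicate 2, db/db replicate 2 and WT replicate 1. Itgav, a subunit of vitronectin receptors, averaged 4.99 ± 1.33 TPM in WT against 6.04 ± 1.71 TPM in db/db, and Itga9, a partner of Itgb1, 3.38 ± 2.27 and 3.65 ± 1.52 TPM (SD, n = 3 each). Their differences were 0.23 and 0.19.

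Itgb1, the beta subunit shared by most matrix receptors, was the most abundant integrin transcript. It stood at 59.82, 50.44 and 86.74 TPM in WT and 57.48, 92.08 and 100.09 TPM in db/db. The groups overlapped, and the difference of 0.33 (SE 0.31, 95% interval -0.30 to 0.97) did not pass (limma adjusted p = 0.92). In each library Itgb1 was above each of its alpha partners, from 1.06 to 1.71 times the level of Itga6, 1.34 to 2.89 times that of Itga5 and 2.57 to 5.33 times that of Itga4.

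Itgb2, the leukocyte beta subunit, was 21.8, 17.62 and 26.44 TPM in WT and 16.23, 23.44 and 35.54 TPM in db/db. It overlapped between groups, and its difference of 0.13 (SE 0.37) became -0.05 after median-of-ratios scaling. It exceeded its partner Itgal in every library, 5.05 to 14.4 times in WT and 2.69 to 6.80 times in db/db.

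Itgb5 and Itgb7 were the beta subunits of lower level. Itgb5, which pairs with Itgav to bind vitronectin, was listed at 1.45, 0.73 and 0.63 TPM in WT and at 4.08, 3.05 and 2.03 TPM in db/db. Every db/db library lay above every WT library, under both scalings, and the ratio of the means was 3.26. Its WT mean of 0.937 TPM was under the 1 TPM minimum for testing, which it met only through its db/db mean of 3.05 TPM. Its separation is therefore a description, not support for a change. The differences within the experiments were 1.05, 1.23 and 0.89, which come from the same values and are a description too. With all 6 libraries the difference was 1.06 (SE 0.56, 95% interval -0.11 to 2.23, limma adjusted p = 0.919, unadjusted p = 0.0743), so the call was not made. Itgb5 was below Itgav in every library, at 0.122 to 0.233 times its level in WT and 0.385 to 0.729 times in db/db, ranges that do not overlap and share the Itgb5 values above.

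Itgb7, the partner of Itga4 and Itgae in gut homing, was 3.95, 4.23 and 7.49 TPM in WT and 14, 5.71 and 12.41 TPM in db/db. It was higher in db/db in each experiment, by 1.60, 0.36 and 0.66, with WT replicate 3 above db/db replicate 2. Its difference was 0.87 (SE 0.47, limma adjusted p = 0.919).

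The share that each member took of the integrin transcripts overlapped between genotypes. Among 18 alpha symbols in the table, of which 4 were at 0 in all libraries, Itga6 held 33.7% ± 4.42 of the summed TPM in WT and 30.5% ± 4.07 in db/db, Itga5 20.5% ± 4.20 and 21.7% ± 6.91, and Itga4 12.9% ± 1.89 and 12.8% ± 4.97 (SD, n = 3 each). Itga2b, the platelet subunit that also marks some HSCs and is no member of the list, held 14.96% ± 3.34 and 17.4% ± 1.69. Among 8 beta symbols Itgb1 held 52.6% ± 0.95 in WT and 49.2% ± 4.01 in db/db, and the partner of Itga2b, Itgb3, 23.5% ± 2.13 and 26.6% ± 0.54. The shares of Itgb3 did not overlap between groups, running from 21.4% to 25.7% in WT and from 26.02% to 27.1% in db/db, and those of Itga3, another non-member, were 1.13% ± 0.709 in WT and 0.396% ± 0.0496 in db/db.

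**Figure D3:**
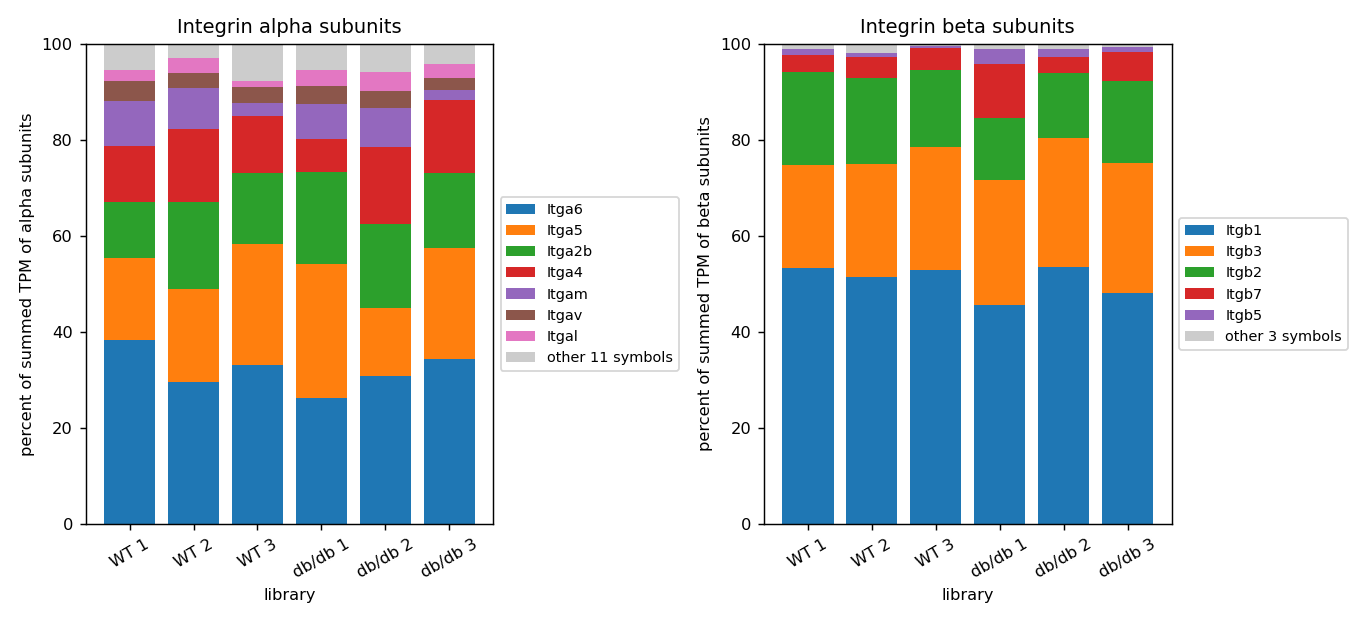
Share of the summed TPM of all alpha subunit symbols (left) and beta subunit symbols (right) held by each subunit, in percent, in each of the 6 libraries. Itga6 is the largest alpha segment in 5 libraries and second to Itga5 in db/db replicate 1, and Itgb1 takes between 45.7% and 53.6% of the beta total.

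Inside the cell, the scaffold of integrin signalling was abundant, and no member of it separated the groups. Ilk, the pseudokinase at its centre, was 142.75, 155.59 and 168.87 TPM in WT and 139.63, 194.13 and 174.97 TPM in db/db. The groups overlapped, with a difference of 0.11 (SE 0.25, 95% interval -0.41 to 0.63, limma adjusted p = 0.954). Lims1, which encodes PINCH, was 24.87, 28.78 and 27.86 TPM in WT and 20.25, 46.19 and 24.75 TPM in db/db, so db/db replicate 2 alone lay above the WT range. Parvb, a parvin, averaged 3.01 ± 0.777 and 4.95 ± 3.21 TPM (SD, n = 3 each). Parvg, the parvin of blood cells, which is not a member, averaged 186 ± 29.9 TPM in WT against 207 ± 16.9 TPM in db/db, far above Parva and Parvb.

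Zyx, which encodes zyxin, a protein of actin-bound adhesion sites, was the most abundant of all 35 members. It stood at 292.6, 246.66 and 302.61 TPM in WT and 402.65, 280.92 and 353.84 TPM in db/db. It was higher in db/db in each experiment, by 0.46, 0.19 and 0.22, though WT replicates 1 and 3 lay above db/db replicate 2. The difference of 0.29 (SE 0.24, 95% interval -0.20 to 0.78) did not pass (limma adjusted p = 0.92).

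Pxn, the gene of the adaptor paxillin, was 74.63, 59.57 and 66.92 TPM in WT and 83.7, 71.27 and 104.95 TPM in db/db. It too was higher in each experiment, by 0.16, 0.25 and 0.64, with db/db replicate 2 inside the WT range. The kinase genes divided by level. Ptk2b, encoding PYK2, the form common in blood cells, averaged 68.0 ± 23.8 TPM in WT against 69.2 ± 22.2 TPM in db/db, and Ptk2, encoding focal adhesion kinase, 4.32 ± 1.22 and 6.12 ± 2.47 TPM (SD, n = 3 each). Vcl, encoding vinculin, averaged 17.6 ± 4.32 and 21.4 ± 3.88 TPM.

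Of the mucin-like and hyaluronan receptors, Cd164, a sialomucin of progenitors, was 131.35, 71.83 and 126.23 TPM in WT and 96.25, 152.41 and 146.72 TPM in db/db. WT replicate 2 was the lowest library and db/db replicate 1 came next, so the groups overlapped (difference 0.28, SE 0.29, limma adjusted p = 0.921). Cd44, the hyaluronan receptor, was 71.69, 72.54 and 101.6 TPM in WT and 96.73, 116.29 and 117.59 TPM in db/db. Only WT replicate 3 reached into the db/db range, and after median-of-ratios scaling the groups no longer overlapped. The difference was 0.44 (SE 0.27, 95% interval -0.13 to 1.0, limma adjusted p = 0.919), or 0.24 after that scaling.

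Selplg, which encodes the selectin ligand PSGL-1, showed the smallest spread of the 4 members without overlap. It was 72.64, 81 and 74.96 TPM in WT and 96.04, 100.44 and 89.87 TPM in db/db, with coefficients of variation of 5.66% and 5.56%. Every db/db library lay above every WT library, and the ratio of the means was 1.25. The differences of 0.40, 0.31 and 0.26 within the experiments gave 0.32 overall (SE 0.27, 95% interval -0.23 to 0.87), which did not pass (limma adjusted p = 0.92). After median-of-ratios scaling it was 0.13 and the groups overlapped.

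Among the immunoglobulin-family molecules, Icam2, a ligand of LFA-1, was the most abundant. It was 79.63, 85.3 and 87.62 TPM in WT and 75.95, 113.53 and 103.85 TPM in db/db, higher in experiments 2 and 3 and lower in experiment 1. Relative to the median gene its difference of 0.19 (SE 0.27) was 0.01. Pecam1, a molecule of endothelium, platelets and HSCs, was 22.73, 16.92 and 33.62 TPM in WT and 25.11, 34.24 and 33.4 TPM in db/db, with a difference of 0.37 (SE 0.35, limma adjusted p = 0.92). The endothelial and stromal list without Pecam1 summed to 9.03 to 13.3 TPM in WT and 6.55 to 14.1 TPM in db/db, with 6 of 8 genes at the higher mean in db/db and none at 0 in all libraries. Of the endothelial genes, Cdh5 was 0, 0.21 and 0.17 TPM in WT and 0, 0.06 and 3.02 TPM in db/db. Kdr was 0.86, 0.87 and 5.25 TPM in WT and 0.35, 1.85 and 0.18 TPM in db/db, with the lower mean in db/db. Both overlapped between groups. Cxcl12, a stromal marker, was at most 0.93 TPM. Pdgfrb, a receptor of pericytes and stromal cells, was 3.34, 4 and 3.19 TPM in WT and 4.52, 10.53 and 5.72 TPM in db/db, without overlap, and the collagen gene Col1a2 was 3.98 to 4.7 TPM in WT and 0.59 to 2.18 TPM in db/db. The part of endothelial and stromal cells in the Pecam1 values was not tested.

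Vcam1, the counter-receptor of the Itga4 product, which macrophages and stromal cells also carry, had the widest difference of all members and varied most within each group. It was listed at 6.36, 0.15 and 0 TPM in WT and at 4.92, 10.62 and 2.25 TPM in db/db. WT replicate 1 lay above db/db replicates 1 and 3, so the groups overlapped, and in experiment 1 the difference was -0.31 against 3.34 and 1.70 in experiments 2 and 3. Overall it was 1.57 (SE 0.69, 95% interval 0.13 to 3.01, limma unadjusted p = 0.0335, adjusted p = 0.899), with p = 0.3 in an exact two-sided permutation test. The difference ran from 1.06 to 2.50 when 1 library was left out. It was 2.50 without WT replicate 1 (adjusted p = 0.411), and 1.06, 1.11 and 1.16 without WT replicate 3, db/db replicate 2 and WT replicate 2, where the unadjusted p was 0.164, 0.169 and 0.14. After median-of-ratios scaling it was 1.44 (unadjusted p = 0.0852).

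Markers of macrophages were present in the same libraries. Of 7 macrophage genes other than Vcam1, 6 were in the table and 5 had the higher mean in db/db. Their sums were 26.4 to 76.5 TPM in WT and 53.3 to 91.0 TPM in db/db, and no marker was at 0 in all libraries. Cd68, at 24.24 to 45.56 TPM in WT and 31.53 to 69.7 TPM in db/db, made up most of these sums. Spic, a transcription factor of red pulp and marrow macrophages, was 3.79, 1.68 and 2.73 TPM in WT and 12.77, 14.55 and 13.54 TPM in db/db, without overlap. Emr1 was 0.88, 0 and 0 TPM in WT and 0.96, 0 and 0.08 TPM in db/db. C1qa was 1.42, 0 and 0.23 TPM in WT and 0.48, 0.52 and 0.74 TPM in db/db. C1qb, 23 TPM in WT replicate 1 and 0.17 and 2.61 TPM in WT replicates 2 and 3, was highest in the WT library where Vcam1 was highest. In db/db C1qb was 6.68, 4.24 and 5.07 TPM, lowest in replicate 2, where Vcam1 was highest. Csf1r was 2.44, 0.26 and 0.18 TPM in WT. In db/db Csf1r was 0.37, 1.18 and 2.35 TPM, highest in replicate 3, where Vcam1 was lowest. Among WT libraries, Emr1, C1qa, Csf1r and Spic were also highest in replicate 1, as Vcam1 was, and Cd68 was highest in replicate 3. Among db/db libraries, Spic was highest in replicate 2, as Vcam1 was. Emr1, C1qb and Cd68 were highest there in replicate 1, and C1qa and Csf1r in replicate 3. The part of macrophages in the Vcam1 values was not tested.

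The remaining immunoglobulin-family members differed by less than their spread. Alcam averaged 10.4 ± 1.07 TPM in WT against 14.8 ± 8.12 TPM in db/db, with db/db replicate 2 the highest library at 23.76 TPM. Jam2 and Jam3, junctional adhesion molecules that bind each other, averaged 4.38 ± 2.16 and 6.32 ± 1.23 TPM in WT and 4.43 ± 1.10 and 6.21 ± 1.31 TPM in db/db (SD, n = 3 each). The difference of Jam3 was -0.02 (SE 0.45, 95% interval -0.96 to 0.91), which leaves a change of nearly 1 log2 unit in either direction within the interval.

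Cd47, a membrane protein that signals to phagocytes against engulfment and also binds thrombospondin and integrins, was 133.86, 145.16 and 151.7 TPM in WT and 155.4, 211.56 and 205.11 TPM in db/db. Every db/db library lay above every WT library, db/db replicate 1 by the narrowest margin. The differences were 0.21, 0.54 and 0.43 within the experiments and 0.40 overall (SE 0.25, 95% interval -0.12 to 0.91, limma adjusted p = 0.919), or 0.20 after median-of-ratios scaling, where the groups overlapped. Cd93, a C-type lectin-like receptor of early progenitors and endothelium, was 59.53, 59.78 and 92.81 TPM in WT and 68.2, 118.59 and 104.82 TPM in db/db. It was higher in each experiment, by 0.19, 0.98 and 0.17, with WT replicate 3 inside the db/db range (difference 0.45, SE 0.30, limma adjusted p = 0.919).

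**Figure D4:**
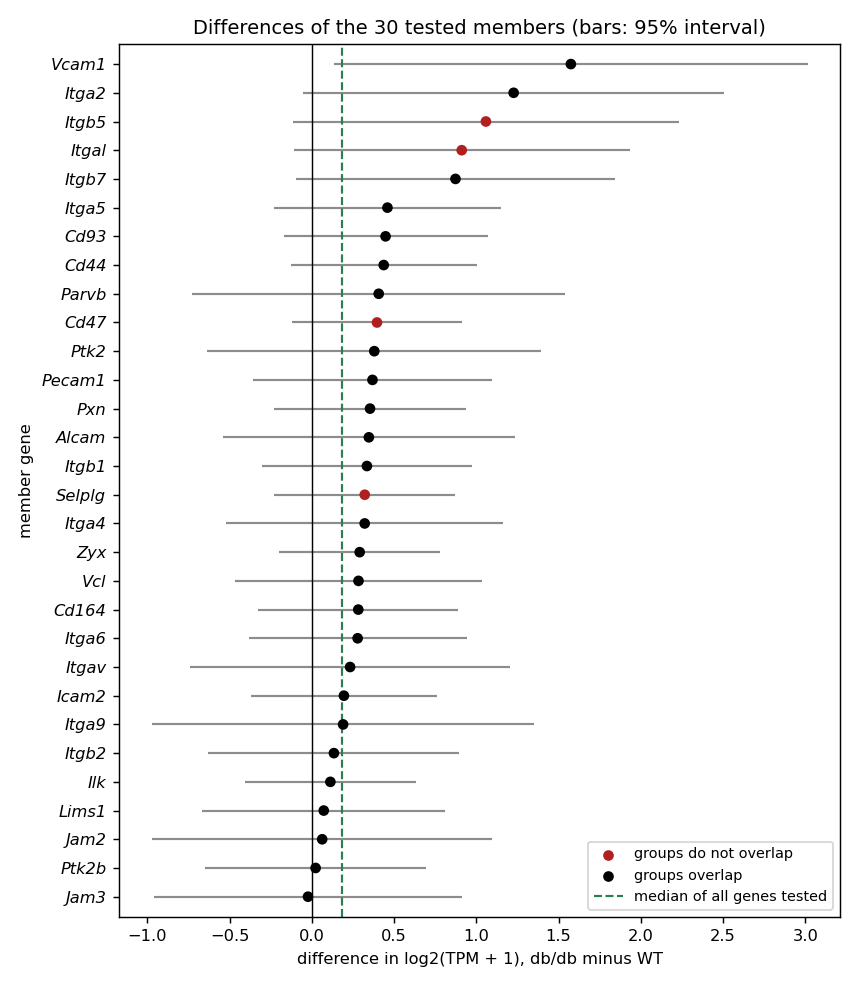
Difference between db/db and WT on the log2(TPM + 1) scale (horizontal axis) with its 95% interval for each of the 30 tested members, red where the groups do not overlap; the dashed green line is the median of all genes tested, at 0.18. The interval of Vcam1 alone lies wholly above 0, and no member passed after adjustment.

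Other genes of the pathway gave 0 calls as well by limma over all genes tested. Of 15 further integrin symbols 4 were tested, and at an unadjusted p under 0.05 none was higher or lower, against 4.1% and 1.25% of all genes. Itga2b was 17.2, 20.8 and 22.99 TPM in WT and 29.25, 39.24 and 28.58 TPM in db/db, without overlap (difference 0.64, SE 0.34, limma adjusted p = 0.919). After median-of-ratios scaling the difference was 0.45 and the groups overlapped. Its partner Itgb3 averaged 29.7 ± 10.8 and 45.0 ± 11.8 TPM (SD, n = 3 each), with a difference of 0.60, and Itga3 had one of -0.50. A list of 9 megakaryocyte and platelet genes includes both Itga2b and Itgb3, so its sum is not independent of them. Summed levels were 457.7 to 701 TPM in WT and 575.2 to 851.8 TPM in db/db. Of the 9, 6 had the higher mean in db/db, Itga2b and Itgb3 among them, while Gp1bb, Vwf and Gp5 had the lower. The part of megakaryocytes and platelets in these differences was not tested.

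Of 15 tested genes of integrin activation, an unadjusted p under 0.05 was reached by 1 higher and 0 lower genes, against 4.1% and 1.25% of all genes. The median difference of the 15 was 0.19, close to the 0.18 of all genes. Tyrobp, the signalling adaptor DAP12 of myeloid cells, was 33.88, 34.34 and 14.12 TPM in WT and 79.36, 48.7 and 39.1 TPM in db/db, without overlap (difference 1.03, SE 0.37, limma adjusted p = 0.769). After median-of-ratios scaling it was 0.84 (unadjusted p = 0.0856), with overlap. Rasgrp2, an activator of the GTPase Rap, was 16.23, 18.85 and 16.75 TPM in WT and 13.93, 8.36 and 13.79 TPM in db/db, without overlap in the other direction (difference -0.52, limma adjusted p = 0.92). Scaled by median of ratios, Rasgrp2 overlapped between groups, at a difference of -0.70. Rap1b, the most abundant of the list, averaged 168 ± 37.8 and 182 ± 16.6 TPM (SD, n = 3 each), and Stk4 93.3 ± 34.2 and 126 ± 23.1 TPM.

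Of 28 tested focal adhesion genes beside the members, 1 was higher and 0 were lower at an unadjusted p under 0.05, against 4.1% and 1.25% of all genes. The median difference of the 28 was 0.27. The higher gene was Tns1, encoding tensin, at 33.4, 23.87 and 43.61 TPM in WT and 42.07, 61.76 and 72.56 TPM in db/db (difference 0.79, SE 0.33, limma adjusted p = 0.899). WT replicate 3 lay above db/db replicate 1.

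Most ligands and counter-receptors were at or near 0 in the sorted cells, and 11 of 24 listed were tested. The selectin gene Sele, the addressin gene Madcam1 and the vitronectin gene Vtn were listed at 0 in all 6 libraries. At an unadjusted p under 0.05, 1 was higher, Col4a1, a basement membrane collagen, at 7.33 ± 3.90 and 14.5 ± 3.44 TPM, and 1 was lower, Thbs1. Of all genes, 4.1% were higher and 1.25% lower at that threshold. Thbs1, which encodes a thrombospondin that CD47 and several integrins bind, was 6.82, 8.14 and 4.03 TPM in WT and 1.38, 0.56 and 1.26 TPM in db/db. Every db/db library lay below every WT library, under both scalings, so this ligand and its receptor Cd47 had opposite signs in these libraries. The difference of -1.81 (SE 0.53, 95% interval -2.91 to -0.71) did not pass over all genes (limma adjusted p = 0.53). Icam1, the most abundant of the list, averaged 30.9 ± 8.12 and 32.1 ± 2.17 TPM (SD, n = 3 each).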

How the data were processed

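RNA of 6 libraries was read as pairs of 75 nucleotides, per the labels' protocols. The authors deposited TPM per gene symbol, made with RSEM and Bowtie2 on mm9, as listed per the submitters' processing notes; tool versions and the annotation are not given in the sources used here. Each TPM column holds 1 library, and RSEM divides reads shared by similar genes by estimate. TPM keeps no depth, so no counting interval is given.

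From these values, limma 3.58.1 in R 4.3.3 compared db/db with WT on log2(TPM + 1) over the 11931 genes averaging 1 TPM or more. Genotype was the sole term, moderation used a trend, tests were two-sided, and p-values were adjusted over all genes by Benjamini and Hochberg's method. Prior degrees of freedom were 17.7 against 4 residual. Intervals are 95% and come from limma. The members, lists, rule for named genes (p under 0.05, no overlap, or the highest levels of each role) and alternatives were chosen with earlier results of these data known. The printed promoters were chosen after values were seen.

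Experiment numbers pair the libraries, per the labels. Deviations from group means correlated across genes at 0.04, 0.01 and 0.16 within experiments. No 2 libraries had more than 0.654% identical values. Other settings tried were each library left out, the replicate block, no trend, median-of-ratios or quantile scaling, a minimum mean of 5 TPM or none, and pseudocounts of 0.5 or 0.1. The result of 1 pathway list is not reported here.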

Additional observations from a re-analysis of the deposited data

How the results depend on the processing

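Over 15 other settings no member passed at an adjusted p under 0.05 (lowest limma adjusted p 0.407), and the member median relative to all genes stayed between 0.0646 (db/db replicate 2 left out) and 0.193 (db/db replicate 1 left out). The count of members higher at an unadjusted p under 0.05, 1 with all settings as reported (4.1% of all genes), was 2 with a pseudocount of 0.1 (4.07%) or no trend (3.83%), and 0 at a mean of at least 5 TPM (4.24%), after median-of-ratios scaling (2.49%) or quantile normalization (2.56%). It was 0 to 4 when 1 library was left out, with 4 without WT replicate 3 (8.11%), 3 without db/db replicate 1 (7.83%) and 0 or 1 without any other (2.24% to 3.02%). With the experiment as a replicate block it was 1 (Vcam1, limma adjusted p = 0.663), and the block changed no call. The count without overlap, 4 higher and 0 lower, was 2 higher at a mean of at least 5 TPM (8.13% of all genes) and 2 after median-of-ratios scaling (5.67%). It was 4 to 15 higher and 0 to 1 lower when 1 library was left out, where 10.2% to 24.7% of all genes were higher and 4.03% to 6.39% lower. Of 443 member values under other settings, 411 kept their direction and side of the threshold and 32, of 9 members, changed sign. After median-of-ratios scaling, with or without the replicate block, Itgb2 was at -0.054, Ilk at -0.082, Lims1 at -0.12, Ptk2b at -0.17 and Jam2 at -0.092. After quantile normalization they were at -0.054, -0.020, -0.11, -0.15 and -0.093. Leaving out 1 library in turn gave -0.013 to 0.81 for Itga4, -0.30 to 0.55 for Itga9, -0.14 to 0.40 for Itgb2, -0.27 to 0.31 for Lims1, -0.16 to 0.31 for Ptk2b, -0.14 to 0.37 for Jam2, -0.17 to 0.10 for Jam3 and -0.040 to 0.70 for Alcam. It moved the difference of 24 of the 30 members by over 1.5 times, among those of 1 sign Cd164 (0.0041 to 0.49), Itga6 (0.058 to 0.51), Parvb (0.023 to 0.93), Itgav (0.047 to 0.38), Ilk (0.0086 to 0.24), Pecam1 (0.14 to 0.62) and Itgb1 (0.17 to 0.58). Their low values came without WT replicate 2 or db/db replicate 2. The cause was not tested. With 3 libraries per group and unknown depth, changes within the printed intervals could not be detected.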

Other observations

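Genes of other niche contacts and stem cell adhesion, beside those described, also gave 0 calls by limma over all genes tested. Of 27 tested, 0 were higher and 1 was lower at an unadjusted p under 0.05, against 4.1% and 1.25% of all genes. The median difference of the 27 was 0.23. The lower gene was Cd99l2, a relative of the leukocyte migration molecule CD99, at 58.61, 51.84 and 78.22 TPM in WT and 38.16, 31.01 and 34.64 TPM in db/db, without overlap under both scalings (difference -0.83, SE 0.30, limma adjusted p = 0.787). Tek, the angiopoietin receptor gene that serves HSC quiescence in the niche, was 19.27, 8.89 and 15.96 TPM in WT and 19.65, 25.81 and 23.08 TPM in db/db, without overlap. The difference in experiment 1 was 0.03, and after median-of-ratios scaling Tek overlapped between groups (difference 0.47, unadjusted p = 0.145). Cxcr4, the receptor for CXCL12 that holds HSCs in marrow, was 77.34, 59.29 and 132.41 TPM in WT and 104.85, 114.26 and 136.62 TPM in db/db, with overlap (difference 0.47, SE 0.30, limma adjusted p = 0.919). The most abundant gene of the list was Gpr56, an adhesion receptor of HSCs, with WT at 1228 ± 320 TPM and db/db at 1297 ± 106 TPM (SD, n = 3 each).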
